A study of Mus musculus and Homo sapiens with 12 samples.

Results

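Aminoacyl-tRNA synthetases are the enzymes that join each amino acid to its transfer RNA. The 35 nuclear genes described here, 19 for cytosolic enzymes or their subunits and 16 for mitochondrial ones, were taken from a list of gene names. The rule uses no measured value, but the list was drawn up with earlier results of these data known. Names were matched in the deposited normalized tables, which pair 11908 mouse and 14931 human genes with a symbol. All 35 were found in the mouse table and 34 in the human one. Their counts came from raw tables of 55487 mouse and 78932 human genes. Human VARS2 is not analysed here. Human symbols are used below for both species, and names ending in 2 are the mitochondrial enzymes.

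Messenger RNA was sequenced in 12 libraries, 3 in each of 4 groups, to compare blood progenitors with and without DDX21, a nucleolar RNA helicase. The mouse cells were lineage-negative, Kit-positive (LK) progenitors sorted from fetal liver at E13.5 of embryonic development. Both mouse groups carried loxP-flanked alleles (Ddx21f/f). WT embryos had no further allele, and cKO embryos also carried Vav1-Cre, a recombinase transgene active in blood cells. The human cells were blood stem cell-like cells made by differentiation of H1, an established embryonic stem cell line. Lentivirus with an mCherry marker delivered either the control hairpin, in the shNC group, or one targeting DDX21, in the shDDX21 group, and CD34+ CD45+ CD43+ cells bearing the vector were sorted after 2 days. The labels give neither the number of hairpins nor whether replicates came from separate embryos or cultures, so the p-values measure only the spread between these libraries.

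Each enzyme first activates its amino acid with ATP and then transfers it to the matching transfer RNA, and 2 unrelated catalytic folds, class I and class II, carry out this reaction. In animal cells several cytosolic synthetases sit together on scaffold proteins in the multisynthetase complex. Mitochondria translate their own messenger RNAs with a separate set of nuclear-encoded synthetases, except that GARS1 and KARS1 serve both compartments. Uncharged transfer RNA activates the kinase GCN2 (EIF2AK4), and the transcription factor ATF4 that this pathway induces is known to activate many of the cytosolic synthetase genes.

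The libraries held 15289510 to 23898130 counts. The targeted mRNA, DDX21, fell in both experiments, from 1424 ± 12.5 CPM in WT to 280.2 ± 3.62 CPM in cKO and from 470.1 ± 6.05 CPM in shNC to 68.3 ± 1.14 CPM in shDDX21 (SD, n = 3 each), where CPM is the read count scaled to a common library size. Summed progenitor markers were at 1709 to 1750 CPM in WT, 1769 to 1784 CPM in cKO, 2393 to 2427 CPM in shNC and 2663 to 2701 CPM in shDDX21. Single progenitor markers went opposite ways. In the mouse CD34 was at 161% of WT and PTPRC at 143%, while KIT and TAL1 were at 87.5% and 83.5%. In the human cells TAL1 was at 145% of shNC and SPN at 128%, while GATA2, MYB and PTPRC were at 45.9%, 65.8% and 73.0%. The 8 hepatocyte markers of the mouse list summed to 10.7 to 12.3 CPM in WT, where up to 3 of them were at 0, and 41.6 to 46.2 CPM in cKO. The 7 myeloid markers summed to 679 to 912 CPM in WT and 334 to 570 CPM in cKO, and the 7 endothelial markers to 44.7 to 48.0 CPM in WT, with LYVE1 at 0, and 82.4 to 91.2 CPM in cKO. In the human libraries the 5 myeloid markers summed to 712 to 725 CPM in shNC and 541 to 545 CPM in shDDX21, with MPO at 19.4% and CSF1R at 116% of shNC, and the 7 erythroid markers to 645 to 663 CPM in shNC and 789 to 809 CPM in shDDX21. The 6 mouse erythroid markers summed to 499 to 640 CPM in WT and 393 to 522 CPM in cKO, with KLF1 at 44.9%, EPOR at 47.6% and ALAS2 at 201% of WT. The part of these shifts in the synthetase results was not tested. In bulk RNA, fewer cells of a type and less RNA per cell cannot be told apart.

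In the control libraries the cytosolic enzymes were the more abundant set. On a length-normalised scale (TPM, the count per exon length as deposited, scaled to a common total), cytosolic members spanned 64.1 to 536 TPM in mouse WT with a median of 219 TPM. Mitochondrial members spanned 13.4 to 100.1 TPM with a median of 30.7 TPM. The highest mouse levels belonged to NARS1, the asparaginyl enzyme, at 536 ± 21.9 TPM (SD, n = 3), and GARS1, the glycyl enzyme, at 487 ± 31.1 TPM (SD, n = 3). The lowest belonged to EARS2, the mitochondrial glutamyl enzyme, at 13.4 ± 0.268 TPM and WARS2, the mitochondrial tryptophanyl enzyme, at 13.9 ± 0.527 TPM (SD, n = 3 each). These last levels differed by less than their spread. In human shNC libraries cytosolic members spanned 13.7 to 231 TPM (median 95.7) and mitochondrial members 5.0 to 117 TPM (median 18.7). FARSA, the catalytic subunit of the cytosolic phenylalanyl enzyme, led at 231 ± 3.44 TPM, beside TARS1, the threonyl enzyme, at 229 ± 1.32 TPM (SD, n = 3 each), again within their spread. The mitochondrial enzymes NARS2 (6.94 ± 0.606 TPM) and SARS2 (5 ± 0.471 TPM) were lowest (SD, n = 3 each). The recorded exon lengths of the same gene differ between the 2 annotations, so levels are not compared across species. The ranking within a species also depends on these lengths. Mouse EPRS1, with 18102 recorded bases, had 846 CPM in WT against 629 CPM for NARS1, with 4355 bases. Human NARS2, with 16377 bases, had 30.2 CPM in shNC against 8.22 CPM for PARS2, with 2356 bases.

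Loss of Ddx21 in mouse LK cells was accompanied by a small, broad decrease of the cytosolic synthetase mRNAs. Of 19 cytosolic members 12 fell, none rose, and the median log2 fold change was -0.22, or -0.18 over all 35 members, where 15 fell and none rose. Every adjusted p here comes from the quasi-likelihood test in edgeR, adjusted over all genes tested by the Benjamini-Hochberg method, and a gene is called when it is under 0.05. Across all 14918 mouse genes tested 36.5% were called, 15.8% lower and 20.7% higher, and the median log2 fold change was 0.00057. The lower calls make up 63.2% of the cytosolic members and 42.9% of all members. Summed over the 19 cytosolic genes, the level was 6581 to 6738 CPM in WT and 5660.0 to 5827 CPM in cKO, a mean of 86.3% of WT. By TPM the sum was 5042 to 5204 in WT and 4659 to 4859 in cKO, a smaller decrease. The groups do not overlap, although 3 libraries against 3 cannot give an exact two-sided permutation p below 0.1. The changes were modest: no member was called at a change of at least 1.5-fold, a criterion that 4.65% of all genes met in the lower direction.

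The lower mRNAs included both catalytic classes. In class I 7 of 10 cytosolic members fell, and in class II 5 of 9, with EPRS1, the fused glutamyl and prolyl enzyme, counted in class I only. Of 7 listed enzymes of the multisynthetase complex 4 fell (EPRS1, IARS1, MARS1 and QARS1), and so did 8 of the 12 cytosolic members outside it. The 3 complex members that were not called were KARS1, LARS1 and RARS1, with log2 fold changes of -0.09, -0.10 and -0.0075.

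AARS1 (ENSMUSG00000031960, GRCm38 chromosome 8, 111033144 to 111057664, plus strand), the alanyl enzyme, had the smallest p of the mouse members. It had 355, 349 and 338 CPM in WT and 276, 267 and 265 CPM in cKO (log2 fold change -0.37, SE 0.036, adjusted p = 0.000263). All 3 cKO libraries lay well below all 3 WT libraries. MARS1, the methionyl enzyme and a complex member, had 282, 289 and 274 CPM in WT and 217, 201 and 217 CPM in cKO (log2 fold change -0.41, SE 0.043, adjusted p = 0.000378). CARS1, the cysteinyl enzyme, had 115, 118 and 109 CPM in WT and 87.7, 83.5 and 83.1 CPM in cKO (log2 fold change -0.43, SE 0.046, adjusted p = 0.000441). Neither gene's groups overlapped, and apart from VARS1, described below, AARS1, MARS1 and CARS1 had the lowest log2 fold changes of the called members. YARS1, the tyrosyl enzyme, had 244, 251 and 245 CPM in WT and 203, 194 and 199.7 CPM in cKO (log2 fold change -0.31, SE 0.034, adjusted p = 0.000492). IARS1, the isoleucyl enzyme of the complex, had 509, 512 and 535 CPM in WT and 443, 446 and 438 CPM in cKO (log2 fold change -0.23, SE 0.034, adjusted p = 0.00193). TARS1 had 257, 253 and 244 CPM in WT and 219, 209 and 207 CPM in cKO (log2 fold change -0.24, SE 0.039, adjusted p = 0.0028). In each of these genes every cKO library was below every WT library. NARS1, the highest member by TPM, had 621, 629 and 639 CPM in WT and 489, 554 and 515 CPM in cKO (log2 fold change -0.28, SE 0.049, adjusted p = 0.00449), again without overlap. GARS1, the next by TPM, had 400.0, 401 and 427 CPM in WT and 363, 396 and 369.9 CPM in cKO and was not called (log2 fold change -0.12, SE 0.047, adjusted p = 0.0813).

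The remaining cytosolic calls were smaller. HARS1, the histidyl enzyme, fell by 0.18 on the log2 scale (adjusted p = 0.00702). SARS1, the seryl enzyme, had 275, 279 and 250.4 CPM in WT and 237, 229.5 and 226 CPM in cKO (log2 fold change -0.22, SE 0.049, adjusted p = 0.0124). EPRS1, the fused glutamyl and prolyl enzyme of the complex, had 838, 838 and 862 CPM in WT and 751, 799.9 and 747 CPM in cKO (log2 fold change -0.14, SE 0.039, adjusted p = 0.0252). The groups of SARS1 and of EPRS1 did not overlap, although the gap between them was narrow. QARS1, the glutaminyl enzyme, had 275, 271 and 284 CPM in WT and 254, 262 and 252 CPM in cKO (log2 fold change -0.11, SE 0.036, adjusted p = 0.0455), just past the threshold. FARSB, the second subunit of the phenylalanyl enzyme, had 217, 214 and 227 CPM in WT and 219, 234 and 222 CPM in cKO and overlapping groups (log2 fold change 0.03, SE 0.042, adjusted p = 0.551). WARS1, the tryptophanyl enzyme, also had overlapping groups and was not called (log2 fold change -0.07).

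The mouse count depended on single libraries. It was 8 without WT replicate 1, 8 without WT replicate 2 and 8 without cKO replicate 3, when 9.78%, 9.59% and 8.92% of all genes were called lower, and lay between 11 and 17 without each of the other libraries. AARS1, CARS1, HARS1, IARS1, MARS1, NARS1, TARS1 and YARS1 were called in every fit that left out 1 library, and 7 of these 8, all but HARS1, under all 16 alternatives at the same threshold. EARS2, EPRS1, FARS2, QARS1, SARS1, VARS1 and YARS2 were each lost when any of those 3 libraries was left out. FARS2, QARS1 and YARS2 were lost whichever of the 6 libraries was left out. Scaling by total counts gave 2 higher calls (MARS2 and WARS2) and 9 lower ones, when 23.9% of all genes were called higher and 10.8% lower and their median log2 fold change was 0.07.

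**Figure D1:**
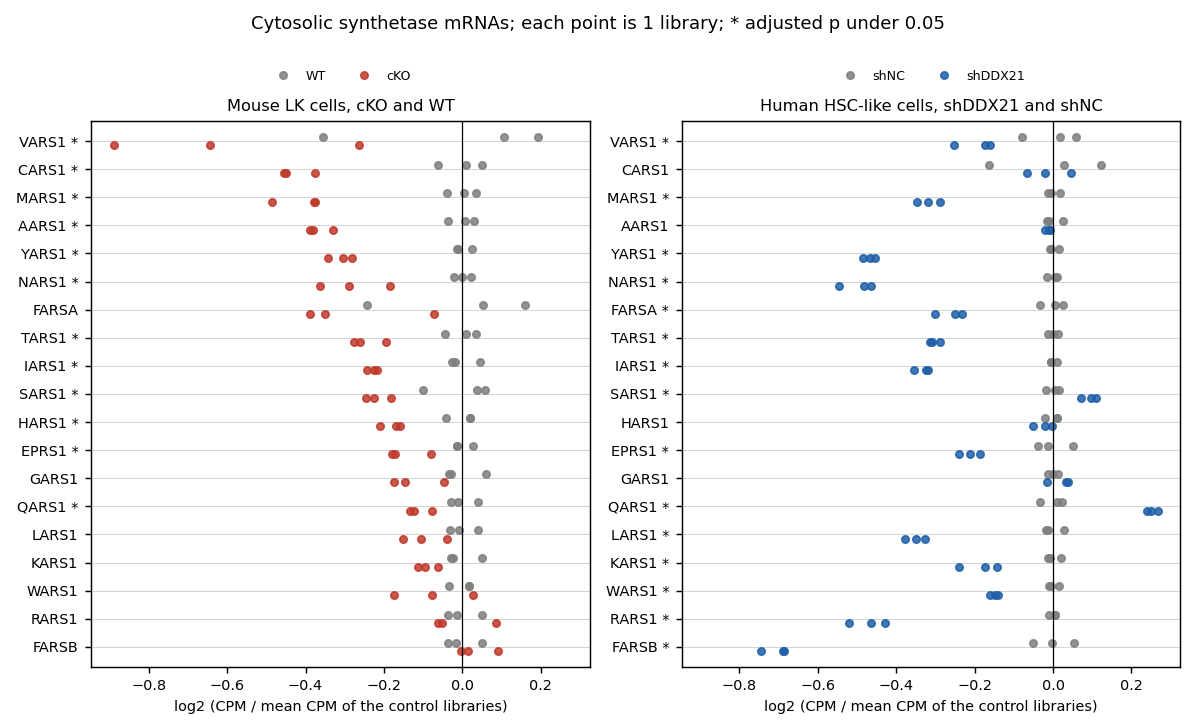
Cytosolic synthetase mRNAs in each library as log2 of CPM over the mean CPM of that experiment's 3 control libraries (x axis), with genes on the y axis ordered by the mouse fold change. Each point is 1 library, grey for controls and coloured for cKO or shDDX21, and asterisks mark adjusted p under 0.05. In the mouse the cKO points of most genes lie left of the WT points, while VARS1 and FARSA are spread widely within both groups. In the human panel FARSB, NARS1, RARS1 and YARS1 lie farthest left and QARS1 lies to the right.

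Mouse member promoters were searched for 2 sequence elements, whether or not the gene was called. RefSeq (GRCm38.p6) windows of 300 bases, 250 before and 50 after the start site, were searched for 26 members. The other 9 were left out or had no window, among them CARS1, HARS1, NARS1 and VARS1, which fell in the mouse. The letters TGATGNAA, the form of the ATF4 binding element, were searched on both strands and found in 5 of the 26 windows, against 3.97% of 32851 mouse promoters. These were AARS1, GARS1, IARS1, TARS1 and YARS1. The E-box CACGTG, which does not overlap these matches, was found in 5 windows (AARS1, EARS2, FARSB, IARS1 and TARS1), against 7.15% of all promoters. Of the 5 genes with an ATF4-type match 4 fell in the mouse, all but GARS1, and 7 of the 21 members whose window lacked a match fell. The 5 matched genes are all cytosolic, while most of the 21 are mitochondrial. Of the cytosolic members whose window lacked a match, EPRS1, MARS1, QARS1 and SARS1 fell, and FARSA, FARSB and KARS1 were not called. Of the 5 genes with an E-box 4 fell as well, all but FARSB. Across all mouse genes tested 15.8% were called lower, and the difference between members with and without either element was not tested. A match describes letters in this window and is not a measured binding site. Of the 5 windows 4 follow, shown because they hold the shared element, with each ATF4-type match in capitals. TTGCATCA and TTTCATCA are the reverse complement of the element.
GARS1: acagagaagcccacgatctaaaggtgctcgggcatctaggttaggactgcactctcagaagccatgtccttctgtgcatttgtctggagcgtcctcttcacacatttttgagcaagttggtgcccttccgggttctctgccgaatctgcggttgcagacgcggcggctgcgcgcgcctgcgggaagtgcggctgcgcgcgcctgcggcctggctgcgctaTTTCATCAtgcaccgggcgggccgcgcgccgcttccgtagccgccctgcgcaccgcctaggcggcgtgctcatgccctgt
IARS1: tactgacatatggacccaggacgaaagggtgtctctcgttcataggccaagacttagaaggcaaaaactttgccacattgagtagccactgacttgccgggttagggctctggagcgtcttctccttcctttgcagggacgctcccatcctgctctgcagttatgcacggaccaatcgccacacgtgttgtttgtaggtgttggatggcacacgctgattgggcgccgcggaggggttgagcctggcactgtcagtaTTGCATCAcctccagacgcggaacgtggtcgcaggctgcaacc
TARS1: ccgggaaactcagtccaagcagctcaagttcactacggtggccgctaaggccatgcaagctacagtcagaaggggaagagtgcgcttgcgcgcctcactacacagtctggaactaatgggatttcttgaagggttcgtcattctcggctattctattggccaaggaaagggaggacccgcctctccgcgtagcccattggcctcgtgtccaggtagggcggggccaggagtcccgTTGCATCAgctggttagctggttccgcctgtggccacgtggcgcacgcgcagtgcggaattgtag
YARS1: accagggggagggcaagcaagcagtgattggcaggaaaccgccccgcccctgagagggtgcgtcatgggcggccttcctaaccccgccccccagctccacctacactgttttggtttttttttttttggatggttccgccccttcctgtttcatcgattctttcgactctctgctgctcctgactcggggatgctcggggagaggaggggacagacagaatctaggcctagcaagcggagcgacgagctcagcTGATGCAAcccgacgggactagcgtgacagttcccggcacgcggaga

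The AARS1 window held 2 matches, the first beginning 112 bases before the start site. The match in GARS1 (chr6:55037751-55038050, plus strand) began 30 bases before it and that in TARS1 (chr15:11399609-11399908, minus strand) 15 bases before it. The matches in IARS1 (chr13:49681880-49682179, plus strand) and YARS1 (chr4:129189653-129189952, plus strand) began 7 and 3 bases after it. In these 5 genes the human log2 fold changes were -0.01 for AARS1, 0.02 for GARS1, -0.33 for IARS1, -0.30 for TARS1 and -0.47 for YARS1, and only the last 3 were called.

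A second group of mouse members had larger fold changes but wide spread. VARS1, the cytosolic valyl enzyme, had 583, 549.6 and 399 CPM in WT and 425, 276 and 327 CPM in cKO (log2 fold change -0.58, SE 0.19, adjusted p = 0.0468). The highest cKO library lay above the lowest WT library. VARS2, its mitochondrial counterpart, had 60.8, 56.9 and 38.8 CPM in WT and 43.5, 22.7 and 31.2 CPM in cKO and was not called (log2 fold change -0.68, SE 0.25, adjusted p = 0.0718). SARS2, the mitochondrial seryl enzyme, had 31.1, 30 and 18.7 CPM in WT and 22.7, 11.2 and 16.6 CPM in cKO (log2 fold change -0.66, SE 0.28, adjusted p = 0.107). In all of these WT replicate 3 was the lowest WT library and cKO replicate 2 the lowest cKO library. AARS2, the mitochondrial alanyl enzyme, and FARSA showed the same order of libraries, with log2 fold changes of -0.50 and -0.26 and adjusted p of 0.106 and 0.125.

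These 5 genes had the most GC-rich transcripts among the members. Their mean transcript GC content was 55.0% to 60.3%, against 38.8% to 54.5% for the other 30. They are also the 5 members in which WT replicate 3 was under 0.85 of the mean of WT replicates 1 and 2, a threshold chosen after the values were seen. When each library's trend of log counts on transcript GC was removed, the spread narrowed and 25 members were called, 24 lower and 1 higher (MARS2), while the share of all genes called lower was 24.2%. All 15 original calls were kept. Under that correction VARS1 had a log2 fold change of -0.34, VARS2 -0.43, SARS2 -0.48, AARS2 -0.26 and FARSA -0.21, and each was called. Leaving out both WT replicate 3 and cKO replicate 2 gave 18 lower and 1 higher call, when 38.9% of all genes were called, 19.0% lower and 19.8% higher. The GC trend is fitted to all libraries, so a difference between WT and cKO that follows GC is removed with it.

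**Figure D2:**
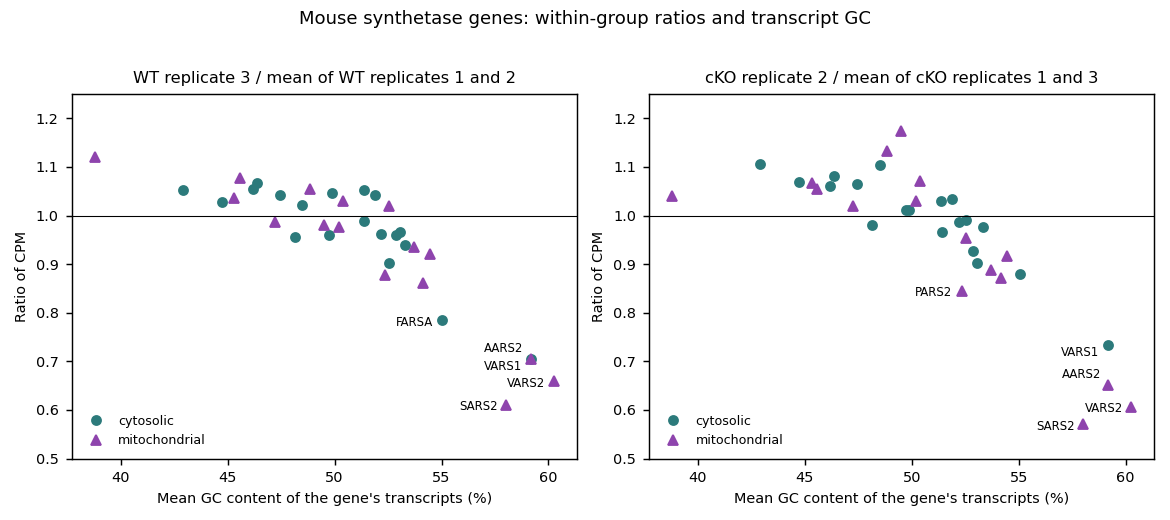
Ratio of CPM within a group (y axis) against mean transcript GC content in percent (x axis) for the 35 mouse members; the left panel sets WT replicate 3 against the mean of the other WT libraries and the right panel cKO replicate 2 against the mean of the other cKO libraries. Circles are cytosolic and triangles mitochondrial members, and genes with a ratio under 0.85 are named. VARS1, VARS2, SARS2 and AARS2 lie lowest in both panels, at the highest GC contents.

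Few mitochondrial synthetase mRNAs were called in the mouse. Of 16 members 3 fell and none rose. The lower share of 18.8% is close to the 15.8% of all genes, the difference from the cytosolic members was not tested, and the median log2 fold change was -0.08. The summed level was 970 to 1036 CPM in WT and 915 to 961 CPM in cKO, with a mean of 93.2% of WT. By TPM it was 604 to 617 in WT and 583 to 603 in cKO. With the transcript GC offset 8 of the 16 were called lower and 1 higher. EARS2 had 19, 19.2 and 17.9 CPM in WT and 16.6, 13.7 and 14.3 CPM in cKO (log2 fold change -0.33, SE 0.093, adjusted p = 0.0305), and its groups did not overlap. YARS2, the mitochondrial tyrosyl enzyme, had 41.3, 42.8 and 43.3 CPM in WT and 35.8, 39.2 and 37.4 CPM in cKO (log2 fold change -0.18, SE 0.058, adjusted p = 0.0465). FARS2, the single-chain mitochondrial phenylalanyl enzyme, had a log2 fold change of -0.19 with an adjusted p of 0.04999. All 3 of these calls were among those lost without WT replicate 1. The highest fold change among all members was that of WARS2, with 23.5, 21.6 and 22 CPM in WT and 26.5, 25.8 and 23.6 CPM in cKO, which was not called (log2 fold change 0.18, SE 0.075, adjusted p = 0.105). MARS2, the mitochondrial methionyl enzyme, had 94, 91.7 and 104 CPM in WT and 105, 111 and 109 CPM in cKO (log2 fold change 0.17, SE 0.057, adjusted p = 0.0566). In both genes every cKO library was above every WT library. The others, CARS2, HARS2, IARS2, LARS2, NARS2, PARS2, RARS2 and TARS2, had log2 fold changes between -0.19 and 0.09 and were not called.

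In the human cells, knockdown of DDX21 lowered most synthetase mRNAs, with a few exceptions in the opposite direction. Of 34 members 22 fell (64.7%) and 3 rose, and the median log2 fold change was -0.19. Across all 20188 human genes tested 52.7% were called, 27.4% lower and 25.3% higher, and the median was 0.0052. Of 19 cytosolic members 13 fell and 2 rose (median -0.21), and of 15 mitochondrial members 9 fell and 1 rose (median -0.14). The cytosolic sum was 3501 to 3561 CPM in shNC and 3036 to 3071 CPM in shDDX21, a mean of 86.6% of the control. By TPM the sum was 2151 to 2171 in shNC and 1665 to 1700.2 in shDDX21, a larger decrease. The size of the decrease in each experiment therefore depends on the scale. With upper-quartile scaling 17 members were called lower and 6 higher, when 23.0% of all genes were called lower and 31.0% higher and their median was 0.07. FARSB was the only member called at a change of at least 1.5-fold, which 10.4% of all human genes met in the lower direction and 9.33% in the higher one.

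FARSB (ENSG00000116120, hg38 chromosome 2, 222566899 to 222656092, minus strand) had 74.5, 80.2 and 77 CPM in shNC and 48, 46.1 and 47.9 CPM in shDDX21 (log2 fold change -0.70, SE 0.044, adjusted p = 2.48e-23). Its partner subunit FARSA had 149.9, 152 and 146 CPM in shNC and 127, 121 and 126 CPM in shDDX21 (log2 fold change -0.26, SE 0.031, adjusted p = 5.28e-11). Both genes fell without overlap of the groups, FARSB by the larger amount. YARS1 had 233, 237 and 233 CPM in shNC and 171, 167 and 169 CPM in shDDX21 (log2 fold change -0.47, SE 0.027, adjusted p = 5.4e-25). NARS1 had 193, 192 and 189.6 CPM in shNC and 139, 137 and 131 CPM in shDDX21 (log2 fold change -0.50, SE 0.03, adjusted p = 1.85e-24). The 3 libraries of each group were tightly spaced in both genes. TARS1, among the most abundant human members, had 257, 262 and 259 CPM in shNC and 208, 209 and 212 CPM in shDDX21 (log2 fold change -0.30, SE 0.026, adjusted p = 7.67e-17).

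Within the multisynthetase complex 6 of 7 listed enzymes fell and QARS1 rose. RARS1, the arginyl enzyme, had 125, 125 and 124 CPM in shNC and 92.8, 87 and 90.5 CPM in shDDX21 (log2 fold change -0.47, SE 0.034, adjusted p = 5.4e-20). LARS1, the leucyl enzyme, had 299, 309 and 300.3 CPM in shNC and 233, 238 and 241 CPM in shDDX21 (log2 fold change -0.35, SE 0.025, adjusted p = 3.25e-20). IARS1 had 298, 300.4 and 297 CPM in shNC and 238, 233 and 239 CPM in shDDX21 (log2 fold change -0.33, SE 0.025, adjusted p = 2.75e-19). These complex members showed similar decreases, each without overlap. MARS1 fell by 0.32 on the log2 scale (SE 0.027), EPRS1 by 0.21 (SE 0.026) and KARS1, the lysyl enzyme, by 0.19 (SE 0.029). MARS1 shares 355 exon bases with DDIT3 and 519 with ARHGAP9 on the other strand, and without a stated strand setting their reads cannot be told apart there. QARS1 (ENSG00000172053, hg38 chromosome 3, 49095932 to 49105130, minus strand) had 226, 228 and 219 CPM in shNC and 269.9, 265 and 267 CPM in shDDX21 (log2 fold change 0.25, SE 0.026, adjusted p = 1.25e-13), so every shDDX21 library was above every shNC library.

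Outside the complex SARS1 also rose, with 154, 152 and 156 CPM in shNC and 165, 162 and 166 CPM in shDDX21 (log2 fold change 0.09, SE 0.029, adjusted p = 0.00616). This small rise depended on the scale. The SARS1 call was lost with total counts, and by TPM its mean was lower in shDDX21 (143.6 ± 2.96) than in shNC (150.4 ± 2.84; SD, n = 3 each). VARS1 had 152, 156 and 142 CPM in shNC and 134, 126 and 133 CPM in shDDX21 (log2 fold change -0.19, SE 0.033, adjusted p = 6.08e-07), and its groups did not overlap. WARS1 fell by 0.15 on the log2 scale (adjusted p = 0.000152). AARS1, CARS1, GARS1 and HARS1 had overlapping groups and log2 fold changes of -0.01, -0.0091, 0.02 and -0.02, and none was called. Their SEs were 0.026, 0.059, 0.029 and 0.033.

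The human mitochondrial set moved in the same mixed way. MARS2 fell by 0.37 on the log2 scale, NARS2 by 0.36, PARS2 (the prolyl enzyme) by 0.40 and SARS2 by 0.43, each with groups that did not overlap. SARS2 was counted at only 3.66 to 4.39 CPM in shNC, and its call was lost in 4 of the 6 fits that left out 1 library (without shNC replicate 1 or 2, or shDDX21 replicate 1 or 3), with adjusted p up to 0.121. The PARS2 call was lost without shNC replicate 1 (adjusted p = 0.0676) or shDDX21 replicate 1 (adjusted p = 0.0534). The other mitochondrial calls, AARS2, CARS2, IARS2, LARS2 and YARS2, had log2 fold changes between -0.20 and -0.13. The AARS2 groups overlapped, and its call was lost without shNC replicate 1 (log2 fold change -0.065, adjusted p = 0.409), shDDX21 replicate 1 (adjusted p = 0.137) or shDDX21 replicate 3 (adjusted p = 0.0571). NARS2, the mitochondrial asparaginyl enzyme, had 32.6, 27.7 and 30.4 CPM in shNC and 24.9, 23.9 and 22.2 CPM in shDDX21 (log2 fold change -0.36, SE 0.068, adjusted p = 5.62e-06). RARS2, the mitochondrial arginyl enzyme, rose, with 44.4, 41.2 and 41.6 CPM in shNC and 50.6, 50.6 and 49.3 CPM in shDDX21 (log2 fold change 0.24, SE 0.05, adjusted p = 3.21e-05). Its 3 shDDX21 libraries were closely spaced above all shNC libraries. YARS2 had 26.4, 27.7 and 23.5 CPM in shNC and 22.8, 21.7 and 23 CPM in shDDX21 (log2 fold change -0.19, SE 0.07, adjusted p = 0.0157), with a small gap between the groups. The YARS2 call was lost without shNC replicate 1, shNC replicate 2 or shDDX21 replicate 2 (adjusted p of 0.0581, 0.106 and 0.0640). The other 21 human calls were kept in every fit that left out 1 library. EARS2, FARS2, HARS2, TARS2 and WARS2 were not called. The mitochondrial sum was 588 to 594 CPM in shNC and 547 to 558 CPM in shDDX21. By TPM it was 443 to 445 in shNC and 358 to 373 in shDDX21.

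**Figure D3:**
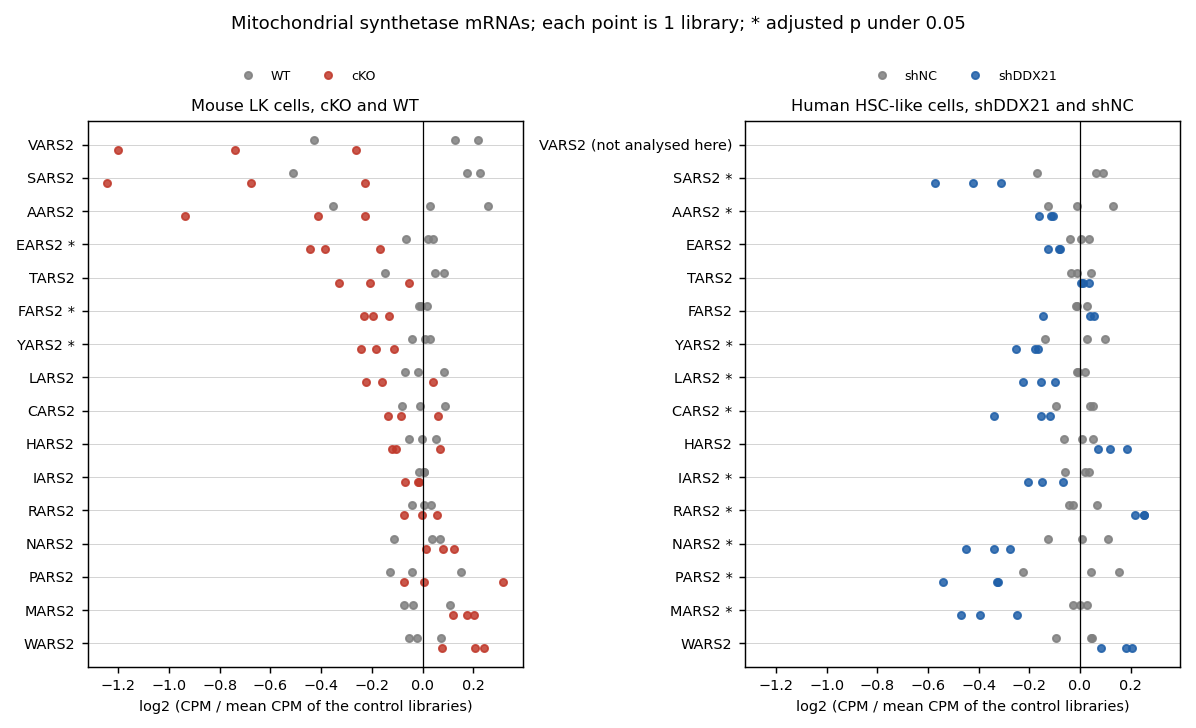
Mitochondrial synthetase mRNAs in each library as log2 of CPM over the mean CPM of the 3 control libraries (x axis), genes on the y axis ordered by the mouse fold change; points are single libraries and asterisks mark adjusted p under 0.05. In the mouse VARS2, SARS2 and AARS2 have the widest spread and no asterisk. In the human panel MARS2, NARS2, PARS2 and SARS2 lie to the left and RARS2 to the right.

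Calls were compared between the 2 experiments gene by gene. Of 34 members tested in both, 8 fell in both (EPRS1, IARS1, MARS1, NARS1, TARS1, VARS1, YARS1 and YARS2), which is 53.3% of the mouse decreases and 36.4% of the human ones. The overlap was not tested, and 64.7% of all members fell in the human cells. The mouse calls of YARS2, EPRS1 and VARS1 were lost in 6, 5 and 4 of the 6 mouse fits that left out 1 library. QARS1 and SARS1 fell in the mouse and rose in the human cells. Their mouse calls were lost in 6 and 3 of those 6 fits, and the human SARS1 call was lost with total counts. GARS1, HARS2, TARS2 and WARS2 were called in neither. An interaction term over all 12 libraries tested whether mouse and human effects differed, in which 56.2% of 10318 matched genes were called and the median difference, mouse minus human, was 0.09. Of the 34 members 16 were called (47.1%), 9 with the mouse effect above the human one and 7 below, against 35.8% above and 20.4% below among all matched genes.

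FARSB had the largest difference, 0.74 (SE 0.057, adjusted p = 6.82e-07), with a mouse log2 fold change of 0.03 and a human one of -0.70. QARS1 differed by -0.36 (SE 0.041, adjusted p = 1.6e-05) and AARS1 by -0.35 (SE 0.04, adjusted p = 1.55e-05), where the mouse mRNA was the lower one in relation to its control. RARS1, with no call in the mouse, differed by 0.46 (SE 0.062, adjusted p = 5.6e-05). LARS1 differed by 0.25 (SE 0.048, adjusted p = 0.000877). These 2 complex members and FARSB had decreases in the human cells beyond those in the mouse. CARS1 differed by -0.42 (SE 0.091, adjusted p = 0.00226) and SARS1 by -0.31 (SE 0.056, adjusted p = 0.00063), both in the direction of AARS1. In the mitochondrial set MARS2 differed by 0.53 (SE 0.087, adjusted p = 0.000267) and NARS2 by 0.43 (SE 0.11, adjusted p = 0.00492). These 9 genes were called in all 19 alternatives at the same threshold, and 13 of the 16 in each fit that left out 1 library. The GARS1, IARS1 and PARS2 calls were not kept, being lost in 8, 7 and 9 of those 12 fits. Only FARSB was called with a difference of at least 1.5-fold. The balance of directions depended on scaling: with total counts 14 lay above and 4 below, against 42.0% and 15.2% of all matched genes. With upper-quartile factors the counts were 6 and 9 (31.4% and 23.5% of all), and with an offset for gene length 7 and 10 (31.3% and 24.2% of all).

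**Figure D4:**
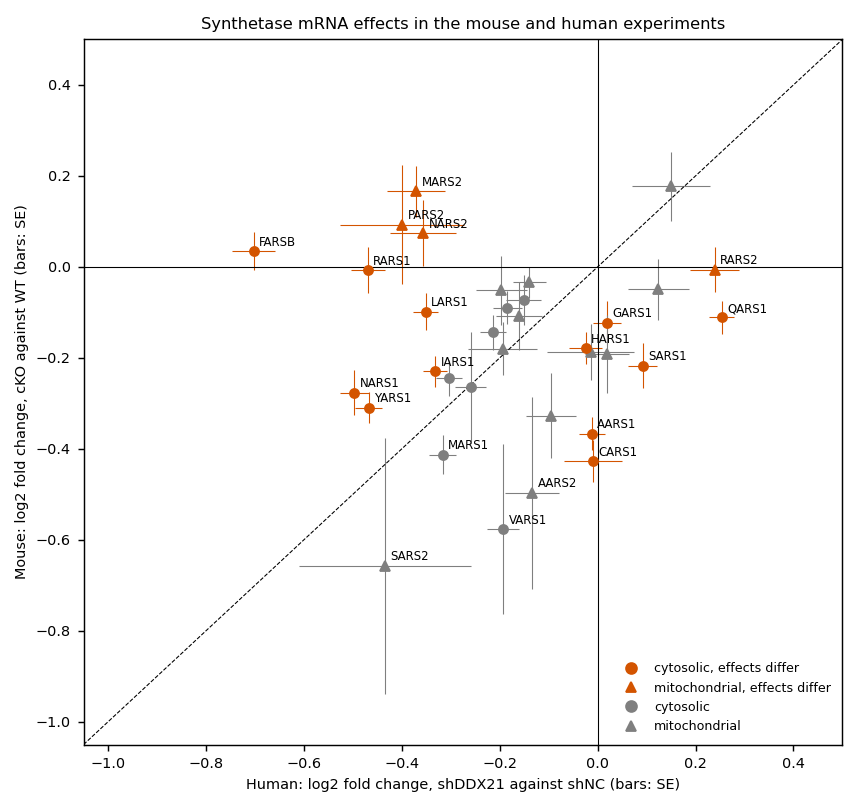
Log2 fold change in the mouse (cKO against WT, y axis) against that in the human cells (shDDX21 against shNC, x axis) for the 34 members tested in both, with SE bars; circles are cytosolic and triangles mitochondrial genes, and orange marks an interaction with adjusted p under 0.05. The dashed line marks equal effects. FARSB, RARS1 and MARS2 lie near 0 or above it in the mouse and well left in the human cells, while AARS1 and CARS1 lie near 0 in the human cells and low in the mouse.

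Of the 3 scaffold genes of the complex, AIMP1, AIMP2 and EEF1E1, none was called in either experiment. In the mouse their median log2 fold change was -0.11, as was that of the 7 complex enzymes. In the human cells the scaffold median was -0.08, against -0.32 for the 7 enzymes, of which 6 fell. AIMP1 had a mouse log2 fold change of -0.04 (SE 0.049, adjusted p = 0.513) and a human one of 0.04 (SE 0.042, adjusted p = 0.384). AIMP2 had a mouse log2 fold change of -0.43 (SE 0.14, adjusted p = 0.0521) and a human one of -0.08 (SE 0.062, adjusted p = 0.292). EEF1E1 had -0.11 (SE 0.041, adjusted p = 0.0666) in the mouse and -0.10 (SE 0.093, adjusted p = 0.363) in the human cells.

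The next counts stand against 15.8% lower and 20.7% higher among all mouse genes and 27.4% and 25.3% among all human genes. Among 7 cytosolic partners of transfer RNA charging, 2 fell in the mouse, and 3 fell and 1 rose in the human cells. XPOT, the nuclear export receptor for transfer RNA, had 470.5, 465 and 461 CPM in WT and 422, 410.2 and 413 CPM in cKO (log2 fold change -0.17, SE 0.031, adjusted p = 0.00576). In the human cells XPOT had 208, 216 and 219.7 CPM in shNC and 140.0, 145 and 140.0 CPM in shDDX21 (log2 fold change -0.60, SE 0.029, adjusted p = 2.33e-29). XPOT thus fell without overlap in both experiments. AARSD1, which removes serine wrongly joined to the transfer RNA for alanine, fell by 0.39 on the log2 scale in the mouse (adjusted p = 0.0447). TRNT1, which adds the CCA end to transfer RNA, had 0.24 (SE 0.036, adjusted p = 2.02e-08) in the human cells. DTD1, a proofreading deacylase, and PPA1, the cytosolic pyrophosphatase, had human log2 fold changes of -0.38 and -0.24, both called. Among 7 mitochondrial partners, 2 fell and 1 rose in the mouse, and 1 fell and 1 rose in the human cells, which is 14.3% each way and below the shares of all human genes. TUFM, the mitochondrial elongation factor that delivers charged transfer RNA, was called lower in the mouse at -0.18 (SE 0.034, adjusted p = 0.00656) and higher in the human cells at 0.23 (SE 0.026, adjusted p = 9.27e-12). GATC and GATB, subunits of the enzyme that makes mitochondrial glutaminyl-tRNA, were called in opposite directions in the mouse, with log2 fold changes of -0.32 and 0.29. MTFMT, which formylates the mitochondrial initiator, had -0.26 (SE 0.096, adjusted p = 0.0198) in the human cells.

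ATF4 target genes were examined beside the synthetases. Of 12 synthetases on a list linked to ATF4, 9 fell in the mouse (median -0.24), and 8 fell and 1 rose in the human cells (median -0.26). Of the other 7 cytosolic members 3 fell in the mouse (median -0.11), and 5 fell and 1 rose in the human cells (median -0.19). Among ATF4 targets that are not synthetases, 11 of 27 tested fell and 4 rose in the mouse (median -0.20), and 22 of 30 fell and 4 rose in the human cells (median -0.42). ATF4 mRNA itself had 206, 194 and 194 CPM in WT and 169, 176 and 171 CPM in cKO (log2 fold change -0.20, SE 0.04, adjusted p = 0.00692). In the human cells it had 387, 394 and 376 CPM in shNC and 508, 505 and 507 CPM in shDDX21 (log2 fold change 0.39, SE 0.023, adjusted p = 2.15e-25). ATF4 mRNA therefore fell in the mouse and rose in the human cells, and the interaction had an adjusted p of 5.58e-07.

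ASNS, asparagine synthetase, had 493, 479.7 and 464 CPM in WT and 331, 337 and 328 CPM in cKO (log2 fold change -0.53, SE 0.036, adjusted p = 4.56e-05). In the human cells ASNS was scarce, at 1.16, 1.5 and 1.41 CPM in shNC and 1.18, 0.889 and 0.74 CPM in shDDX21, and was not called (log2 fold change -0.51, SE 0.31, adjusted p = 0.17). ALDH18A1 and SLC1A4, for proline synthesis and neutral amino acid uptake, fell by 0.45 and 0.52 on the log2 scale in the mouse. DDIT4 and SESN2, stress-response inhibitors of mTORC1 that p53 also activates, rose in the mouse with log2 fold changes of 4.99 and 1.90. The human decreases included PHGDH (-1.09) and PSAT1 (-1.07), enzymes of serine synthesis, with SLC7A5 (-0.55) and SLC38A2 (-0.48), amino acid transporters, and the transcription factor CEBPB (-0.99). DDIT3, the stress factor CHOP, had 0.17 (SE 0.096, adjusted p = 0.209) in the mouse and 0.55 (SE 0.12, adjusted p = 5.31e-05) in the human cells.

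Genes that sense uncharged transfer RNA or phosphorylate eIF2 were split. Of 6, 1 rose and 1 fell in the mouse, and 3 rose and 3 fell in the human cells. IMPACT, an inhibitor of GCN2, was called higher in the mouse at 0.38 (SE 0.053, adjusted p = 0.00154) and lower in the human cells at -0.60 (SE 0.051, adjusted p = 3.73e-17). EIF2AK1, the heme-regulated kinase, was called lower in the mouse at -0.24 (SE 0.041, adjusted p = 0.00359) and higher in the human cells at 0.25 (SE 0.027, adjusted p = 6.29e-13). EIF2AK4 (GCN2) and its activator GCN1 had human log2 fold changes of -0.35 and -0.23, both called, and EIF2AK2, the kinase PKR, 0.45. WARS1 is a known interferon-induced gene. Of 11 interferon-response genes tested in the human cells 9 rose, while WARS1 fell as given above. In the mouse 4 of 8 rose and 1 fell, with WARS1 not called.

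**Figure D5:**
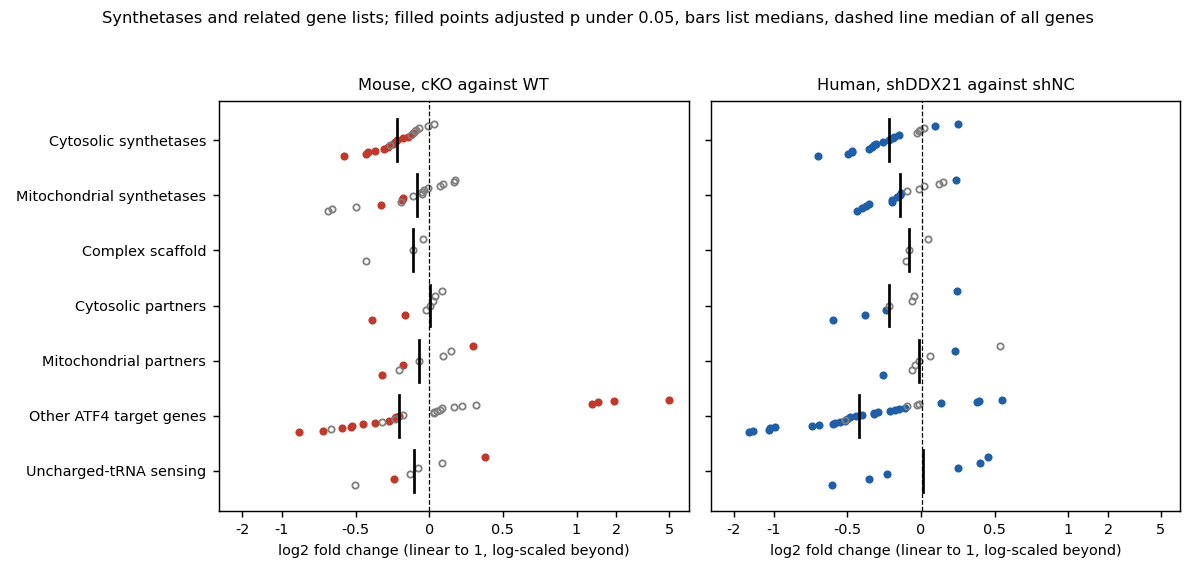
Log2 fold changes (x axis, linear to 1 and log-scaled beyond) of synthetases and related gene lists (y axis) in the mouse and human experiments; each point is 1 gene, filled where adjusted p is under 0.05, black bars are list medians and the dashed line is the median of all genes tested. The cytosolic synthetase medians lie at -0.22 in the mouse and -0.21 in the human cells, and the other ATF4 targets at -0.20 and -0.42, with 4 mouse genes far to the right.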

How the data were processed

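Polyadenylated RNA was sequenced in 12 libraries. Per the submitters' processing notes, the tools were STAR, featureCounts and DESeq2 and the builds mm10 and hg38; their versions, the strand setting and the handling of multiply aligned reads are not given in the sources used here. The authors deposited raw counts per gene, which were tested here. They also deposited a normalized signal per gene, which equalled the raw count over 1 constant per library to within a relative 4.97e-10, and a log2 of that signal over the control mean; these deposited tables were used for symbols only, and human symbols came from the 14931 genes they pair with one.

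Counts were fitted with edgeR 4.0.16 in R 4.3.3 (filterByExpr, TMM scaling, quasi-likelihood test, two-sided, no covariates), separately in each experiment, and over all 12 libraries for the interaction. SE was obtained by dividing the log2 fold change by the root of the F statistic. Alternatives were other scalings, filters, DESeq2 1.42.0, a gene-length offset, a replicate block, leaving out each library and a stricter call; a transcript GC offset (mouse, GENCODE M21) and the loss of 2 libraries together were added after seeing the data. Mouse positions refer to GRCm38. On simulated counts 58 of 100 genes changed 1.5-fold were recovered in the mouse and 95 of 100 in the human design, and 89 and 100 of 100 at 2-fold. The members and gene lists were chosen with earlier results of these data known. The members named with all libraries were, per experiment, the 6 with the smallest adjusted p and up to 2 called the opposite way, those called in both, the 3 with the smallest interaction p and the 2 highest and 2 lowest by level; VARS2, SARS2, WARS2, MARS2, FARSA and a few other members were added after their values were seen. Of each related list up to 5 called genes were named, and ATF4, ASNS, DDIT3, AIMP1, AIMP2, EEF1E1 and DDX21 always.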

Additional observations from a re-analysis of the deposited data

Results flagged for a closer look

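In 16 of 34 members (47.1%) the mouse and human effects differed in the interaction test (edgeR, adjusted p under 0.05). Among all matched genes the share called was 56.2%. The values are the mouse log2 fold change minus the human one. The median of this difference over all 10318 matched genes was 0.09. The mouse effect was higher for FARSB by 0.74, MARS2 by 0.53, PARS2 by 0.49, RARS1 by 0.46, NARS2 by 0.43, LARS1 by 0.25, NARS1 by 0.22, YARS1 by 0.16 and IARS1 by 0.10. For IARS1, NARS1 and YARS1 both experiments showed a decrease, and the IARS1 difference is close to the median of all genes. The difference was -0.42 for CARS1, -0.36 for QARS1, -0.35 for AARS1, -0.31 for SARS1, -0.25 for RARS2, -0.15 for HARS1 and -0.14 for GARS1, where the mouse effect was the lower one. GARS1 was called in neither experiment alone. The interaction calls of GARS1, IARS1 and PARS2 were each lost when single libraries were left out, and those of GARS1 and IARS1 also with the replicate block. With upper-quartile factors the calls of GARS1, IARS1, NARS1 and YARS1 were lost. With total counts those of GARS1, HARS1 and RARS2 were lost, and with the gene-length offset those of IARS1 and YARS1. Species, developmental stage, culture and the way DDX21 was reduced differ together between the experiments and cannot be told apart.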

How the results depend on the processing

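The count of called members stayed within 1.5 times the value reported, with these exceptions. Mouse fits that left out 1 library gave 8 to 17 calls, the transcript GC offset gave 25, and the call at 1.5-fold or more gave 0 members in the mouse, 1 in the human cells and 1 in the interaction. The mouse cytosolic median log2 fold change was -0.15 with total counts and -0.22 to -0.18 with 1 library left out. The mouse mitochondrial median was -0.014 with total counts, -0.13 with the gene-length offset and -0.13 with the transcript GC offset. With upper-quartile factors, total counts and the gene-length offset, the human cytosolic median was -0.14, -0.24 and -0.17 and the human mitochondrial median -0.070, -0.17 and -0.094. With 1 library left out these medians were -0.24 to -0.19 and -0.17 to -0.12. Members whose fold change reversed sign were not called before or after. In the mouse these were, with total counts, CARS2 (0.014), HARS2 (0.017), IARS2 (0.032), RARS1 (0.058) and RARS2 (0.059), with upper-quartile factors RARS1 (0.019) and RARS2 (0.020), with the filter of 10 counts in every library RARS1 (0.0072) and RARS2 (0.0087), with the gene-length offset RARS2 (0.00065) and with the transcript GC offset FARSB (-0.033). With 1 library left out CARS2 ranged from -0.099 to 0.0037, PARS2 from -0.021 to 0.18, RARS1 from -0.044 to 0.026 and RARS2 from -0.028 to 0.026. In the human cells they were, with upper-quartile factors, AARS1 (0.057), CARS1 (0.060), FARS2 (0.055) and HARS1 (0.045), with the gene-length offset AARS1 (0.057), CARS1 (0.060), FARS2 (0.021) and HARS1 (0.039), with the filter of 10 counts CARS1 (0.0010) and with total counts GARS1 (-0.010) and TARS2 (-0.011). With 1 library left out CARS1 ranged from -0.093 to 0.055, FARS2 from -0.049 to 0.048 and TARS2 from -0.0016 to 0.036. The cause of these shifts was not tested.

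Deviations of same-numbered libraries correlated at 0.32, -0.18 and 0.013 in the mouse and at -0.014, -0.0024 and -0.00086 in the human cells. In the mouse WT replicate 3 correlated at 0.41 with cKO replicate 2 and at -0.42 with cKO replicate 1. These values show no consistent pairing by replicate number, and they cannot exclude another pairing of the libraries. With the replicate block 13 mouse members, 25 human members and 14 interactions were called. Spread between libraries (biological coefficient of variation 10.5% in the mouse, 2.23% in the human cells) limits which small changes can be called.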
